A study of Mus musculus with 2 samples.

Results

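Sox7, Sox17 and Sox18 are the mouse genes of the SoxF group of transcription factors, and they were taken from the deposited tables by their Ensembl identifiers, as 3 of 43346 annotated genes. Total RNA longer than 200 nt had been sequenced from limbs of B6NCrl mouse embryos at day 14.5, in 2 libraries of 1 group, each made from 10 ng of RNA with spike-in RNAs added. Each sample was the 4 limbs of a pup, per the labels, which also give the sex as pooled. The donor identifier, pup number and pregnancy number do not differ between the samples, but the day of collection does. No treatment, mutation or second stage was included, so the data give levels and their spread between biological replicates 1 and 2, and no comparison of conditions. The tables held 34193161 expected counts in replicate 1 and 32879425 in replicate 2 over all features. Whole limb tissue was used, so fewer cells of a type and less RNA per cell cannot be told apart, and the cells that held an RNA were not measured.

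SoxF proteins bind DNA through an HMG box, a domain that all Sox proteins share, and they are best known in the endothelium, the cell layer that lines blood and lymphatic vessels. In mouse, Sox18 starts the formation of lymphatic vessels by switching on the lymphatic regulator Prox1, and its mutation causes the ragged phenotype of vessels and hair follicles. Sox17 is required for arterial identity and, in the early embryo, for the gut endoderm, while Sox7 acts together with both in the formation of vessels. The 3 proteins can replace each other in part, and their levels relative to each other are therefore of interest.

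The start of the HMG box of Sox17 is shown beside that of Sox18 because reads from such a stretch could be assigned to the wrong member, and because it is the stretch that some Sox17 transcripts lack. The coding strand is printed 5′ to 3′ from the GENCODE M21 transcript sequences on GRCm38, beginning at codon 70 of Sox17 and 81 of Sox18. Capitals mark the 16 of 99 positions at which these members differ. The stretches lie at chr1:4493101-4493199 on the minus strand for Sox17 and at chr2:181671183-181671281 on the minus strand for Sox18.
Sox17: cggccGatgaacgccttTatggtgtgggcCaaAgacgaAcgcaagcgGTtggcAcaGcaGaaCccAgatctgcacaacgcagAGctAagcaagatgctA
Sox18: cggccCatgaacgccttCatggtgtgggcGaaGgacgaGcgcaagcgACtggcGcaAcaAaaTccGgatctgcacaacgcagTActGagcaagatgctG
Sox17 and Sox18 shared 83 of these 99 bases, and each stretch ends 1 base before the end of its exon. The capitals are scattered, so the sequences differ at short intervals along the stretch.

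The longest run of bases shared by the Sox17 and Sox18 transcripts was 29 nt. The deposited posterior SD of the count, which grows where reads can belong to several transcripts, was listed at 0 for Sox7 and Sox18 in both libraries. For Sox17 it was 2.06 counts in replicate 1 and 1.68 in replicate 2, on 249.72 and 251.70 expected counts. The deposited counts of Sox7 and Sox18 were whole numbers.

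Sox18 was the most abundant member, at about 4 times the level of the others. Sox18 (ENSMUSG00000046470, GRCm38 chromosome 2, 181669836 to 181671640, minus strand) had 1016 expected counts in replicate 1 and 907 in replicate 2. Its level was 29.06 TPM in the replicate 1 library and 27.78 TPM in the replicate 2 library, where TPM, the deposited unit of transcript abundance, is a level per length. The mean was 28.4 ± 0.905 TPM (SD, n = 2). The libraries lie close together, and counting error alone allows 27.3 to 30.9 TPM in replicate 1 and 26.0 to 29.6 TPM in replicate 2 (95% exact Poisson intervals). Among 13191 protein-coding genes at 1 TPM or more in both libraries, 62.4% had a lower mean TPM than Sox18.

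Sox7 (ENSMUSG00000063060, chromosome 14, 63943673 to 63950732, plus strand) had 542 expected counts in replicate 1 and 477 in replicate 2. Its level was 7.37 TPM in replicate 1, against 6.95 TPM in replicate 2, with a mean of 7.16 ± 0.297 TPM (SD, n = 2). Its counting intervals, 6.76 to 8.02 TPM and 6.34 to 7.60 TPM, overlap. Of the detected protein-coding genes, 25.5% had a lower mean TPM.

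Sox17 (ENSMUSG00000025902, chromosome 1, 4490931 to 4497354, minus strand) was at 6.53 TPM in replicate 1, against 7.54 TPM in replicate 2, with a mean of 7.04 ± 0.714 TPM (SD, n = 2). Its expected counts, 249.72 in replicate 1 and 251.70 in replicate 2, were nearly the same. The deposited effective length of the gene, which is weighted by the estimated transcripts, was 1664.00 nt in replicate 1 and 1555.51 nt in replicate 2. The log2 ratio of replicate 1 over replicate 2 was −0.21 on TPM and −0.03 on scaled counts, and that of the effective length was 0.10. For Sox7, whose effective length was the same in both libraries, the log2 ratio was 0.08 on TPM and 0.16 on scaled counts. The Sox17 TPM therefore differed between the libraries through its estimated length and the scaling of TPM more than through its counts. Its counting intervals, 5.75 to 7.40 TPM and 6.65 to 8.54 TPM, overlap.

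The order of levels was Sox18, then Sox7 and Sox17 together. The log2 ratio of Sox18 over Sox7, on TPM with 0.1 added, was 1.96 in replicate 1 and 1.98 in replicate 2, with a mean of 1.97 ± 0.01 (SD, n = 2) or 3.93-fold. The ratio of Sox18 over Sox17 was 2.14 in replicate 1 and 1.87 in replicate 2, with a mean of 2.00 ± 0.19 or 4.01-fold. Sox17 over Sox7 was −0.17 in replicate 1 and 0.12 in replicate 2, so the order of this pair turned between the libraries, and the difference of 0.125 TPM between their means was under the SD of either gene. Sox18 held 67.6% of the summed SoxF TPM in replicate 1 and 65.7% in replicate 2. Sox7 held 17.2% and 16.4% and Sox17 15.2% and 17.8%. The sum of the 3 members was 42.96 TPM in replicate 1, against 42.27 TPM in replicate 2. No p-value is given for these ratios, since the smallest that exact sign flips of 2 values allow is 0.5.

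Among the 20 Sox genes in the tables, Sox18 ranked 4 by mean TPM, Sox7 9 and Sox17 10. The genes above Sox18 were Sox11 at 92.6 ± 19.8 TPM, Sox9, the regulator of cartilage, at 88.6 ± 18.5 TPM and Sox4 at 70.6 ± 11.5 TPM (SD, n = 2 each). Next below it was Sox5, which acts with Sox6 in cartilage, at 23.33 TPM in replicate 1, against 27.47 TPM in replicate 2. Sox18 exceeded Sox5 in both libraries, by little in replicate 2. Sox12, Sox6 and Sox8 stood between Sox18 and Sox7 at 11.8 ± 1.94, 11.7 ± 1.24 and 11.5 ± 2.13 TPM, and Sox10, a gene of Schwann cells and melanoblasts, stood just below Sox17 by the mean, at 6.26 ± 0.714 TPM, but above it in replicate 1. Sox13 followed at 4.04 ± 0.608 TPM, and Sox15 at 2.34 TPM in replicate 1, against 0.790 TPM in replicate 2. Of the SoxB genes, Sox2, Sox3, Sox14 and Sox21 were under 1 TPM in both libraries, and Sox1 was listed at 0, as was Sry. Sox30 was also under 1 TPM. The 3 SoxF genes held 13.0% of the summed Sox TPM in replicate 1 and 10.4% in replicate 2. That sum was 331.07 TPM in replicate 1, against 404.79 TPM in replicate 2, while the sum of the SoxF genes, given above, was nearly the same in both.

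**Figure D1:**
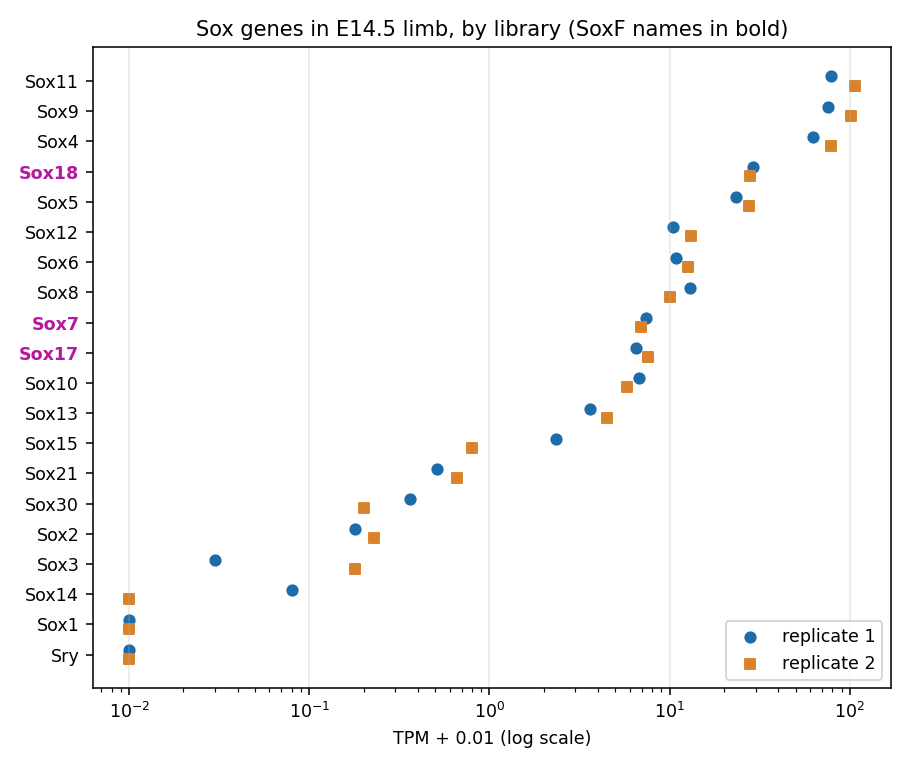
Level of each Sox gene in both libraries, as TPM + 0.01 on a log scale, with genes in order of mean TPM from top to bottom; circles are replicate 1 and squares replicate 2. Sox18 is the highest below Sox11, Sox9 and Sox4, at 28.4 TPM, and the points of Sox7 and Sox17 change order between the libraries.

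The levels of endothelial genes give the setting of the SoxF values. Each of 20 genes of a pan-endothelial list was at 1 TPM or more in both libraries, against 61.4% of protein-coding genes, with a median of 25.9 TPM. The list was led by Egfl7, a secreted endothelial protein, at 81.9 ± 2.43 TPM, by Ramp2, part of the adrenomedullin receptor, at 79.4 ± 3.15 TPM and by Plvap, a protein of endothelial pores, at 41.9 ± 2.08 TPM (SD, n = 2 each). By mean level Sox18 was above 12 of these 20 genes, and Sox7 and Sox17 were above 1, Myct1, which is named here after its value was seen. Within a library these counts differed by at most 1, with 11 below Sox18 in replicate 1. Sox18 was close to the adhesion gene Pecam1 and the junction gene Cdh5. Pecam1 was at 30.2 TPM in replicate 1, against 31.1 TPM in replicate 2, and the log2 ratio of Sox18 over Pecam1 was −0.06 in replicate 1 and −0.16 in replicate 2. Cdh5 was at 26.4 TPM in replicate 1, against 26.0 TPM in replicate 2, and the log2 ratio of Sox18 over Cdh5 was 0.14 in replicate 1 and 0.09 in replicate 2. Sox7 was at 0.236 and Sox17 at 0.231 of the Pecam1 level by the mean log2 ratio. The summed SoxF level was 7.64% of the summed pan-endothelial level in replicate 1 and 7.45% in replicate 2.

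Sox18 was also high among transcription factors with a known part in endothelium. Of 20 listed factors, 19 reached 1 TPM in both libraries. In replicate 1, 2 of the 20 were above Sox18 and in replicate 2, 4 were, and by the mean 2 were, Ets2 at 66.7 ± 6.87 TPM and Mef2c at 45.5 ± 2.75 TPM. Both are also expressed outside the endothelium, Mef2c in muscle and cartilage. The ETS factor Ets1 came next, at 28.1 ± 2.43 TPM, with 26.40 TPM in replicate 1, against 29.83 TPM in replicate 2, so that it lay below Sox18 in replicate 1 and above it in replicate 2. The ETS factor Elk3, named after its values were seen, did the same, at 27.19 TPM in replicate 1, against 28.09 TPM in replicate 2. Sox7 and Sox17 were above 6 of the 20 factors and below 14. Etv2, the ETS factor that sets up the first endothelial cells of the embryo, was under 1 TPM, at 0 in replicate 1 and 0.150 TPM in replicate 2.

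**Figure D2:**
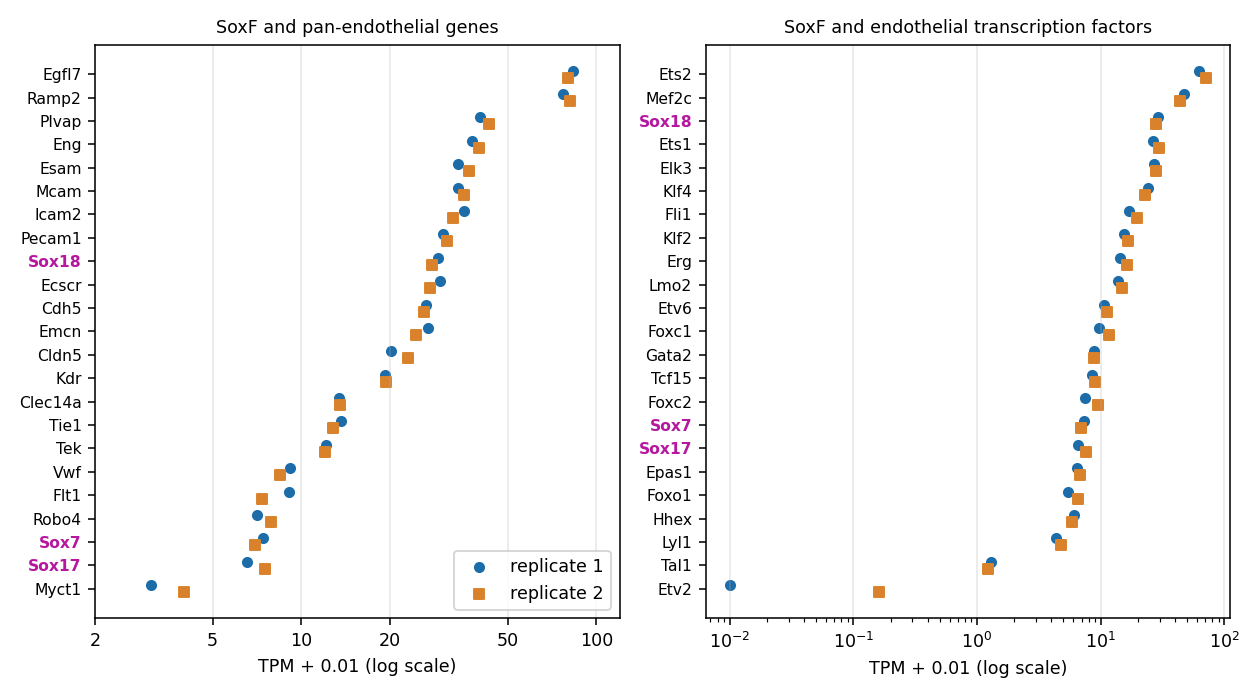
Levels of the SoxF genes (bold) among 20 pan-endothelial genes, left, and 20 endothelial transcription factors, right, as TPM + 0.01 on log scales; circles are replicate 1 and squares replicate 2. Sox18 lies near Pecam1 and Cdh5 and below Ets2 and Mef2c among the factors, while Sox7 and Sox17 lie near the low end of the pan-endothelial genes.

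Genes of the vessel types and of the pathways in which SoxF proteins act were mostly detected. These are levels of whole limb, and the cells that held the RNAs were not measured for any of these lists. Of 15 arterial and Notch pathway genes 14 were at 1 TPM or more in both libraries, and the highest were the receptor gene Nrp1 at 38.3 ± 1.93 TPM, the arterial ligand gene Efnb2 at 36.5 ± 6.31 TPM and Notch1 at 34.9 ± 1.42 TPM, and the kinase gene Bmx was under 1 TPM in both. All 4 venous genes were at 1 TPM or more, with Ephb4, the receptor for the Efnb2 product, at 65.6 ± 7.58 TPM, the apelin receptor gene Aplnr at 36.2 ± 0.297 TPM and the venous regulator Nr2f2 at 27.2 ± 2.66 TPM. All 8 lymphatic genes were too, led by Pdpn at 60.6 ± 1.73 TPM, the ligand gene Vegfc at 11.0 ± 0.820 TPM and Itga9 at 8.71 ± 1.64 TPM, genes that other limb cells also express. Prox1, the Sox18 target in lymphatic vessels, was at 2.41 TPM in replicate 1, against 2.08 TPM in replicate 2, and Lyve1, a receptor of lymphatic cells and some macrophages, at 7.51 and 4.14 TPM. Both are named after their values were seen.

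Of 13 genes reported as targets of SoxF proteins in mouse, zebrafish or human endothelial cells, 12 reached 1 TPM in both libraries. They were led by the adhesion gene Vcam1 at 129.8 ± 13.8 TPM, Egfl7 and Nrp1. Whether SoxF proteins act on these genes in the limb was not tested. Mmp7, reported for human SOX18, was listed at 0 in replicate 1 and at 0.05 TPM in replicate 2. SoxF proteins can bind beta-catenin, the effector of WNT signalling, and all 6 genes of that list were detected. Ctnnb1, which encodes beta-catenin, stood at 460.0 ± 12.7 TPM, and the partner factors Tcf7l2 and Tcf7l1 at 106 ± 8.51 and 39.4 ± 3.74 TPM.

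SoxF genes are also active outside vessels. Markers of such cells, of megakaryocytes and of the cells that wrap vessels were mixed. Over all protein-coding genes, 61.4% reached 1 TPM in both libraries. The shares of the hair and megakaryocyte lists below, 60.0% and 66.7%, were near that. Of 9 genes of the gut endoderm 2 reached 1 TPM in both libraries. Of the 9, 6 were under 1 TPM in both, among them the regulators Foxa2, at 0.110 TPM in replicate 1, against 0.120 TPM in replicate 2, and Hnf4a, at 0.01 and 0.02 TPM. The regulators Foxa3 and Gata6 were higher, at 2.39 ± 0.0424 and 1.22 ± 0.332 TPM, and Cldn6 stood at 8.94 ± 2.02 TPM. Of 10 genes of hair placodes and the dermal condensates beneath them, where Sox18 is known to act, 6 reached 1 TPM. They were led by Lef1 at 33.5 ± 2.57 TPM, Bmp4 at 15.2 ± 0.325 TPM and Lhx2 at 7.72 ± 1.41 TPM, genes of limb mesenchyme as well, and Sox2, Shh and Foxd1 were under 1 TPM. Of 10 genes of blood progenitors, cells that use Sox17 in the fetus, 8 reached it, led by Cd34 at 80.2 ± 3.92 TPM, Mecom at 39.9 ± 10.5 TPM and Kit at 12.0 ± 0.212 TPM, all of which are expressed in other cells too. Of 6 genes of megakaryocytes, which share markers with endothelium, 4 did, led by Pf4 at 52.5 ± 9.14 TPM with Itga2b at 3.25 ± 0.799 and Ppbp at 2.39 ± 0.113 TPM, while Gp1ba and Gp6 were under 1 TPM. Of 10 genes of smooth muscle and pericytes, the cells that wrap vessels, 9 did, led by Acta2 at 220.1 ± 43.4 TPM, Pdgfrb at 34.3 ± 3.55 TPM and Cspg4 at 21.8 ± 1.29 TPM. The median of this list was 11.3 TPM. Its lowest gene was Myh11, at 1.10 TPM in replicate 1, against 0.63 TPM in replicate 2, and Cnn1 stood at 1.80 ± 0.269 TPM. Both are named after their values were seen. The part of any of these cell types in the SoxF levels was not tested.

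Sox7 and Sox18 had a single transcript each in the tables, and Sox17 had 8. The Sox17 transcripts differ in whether their coding sequence holds the exon with the usual start codon, which also holds the printed start of the HMG box. The coding part of that exon spans 4493100 to 4493406 on chromosome 1. In mouse a shortened Sox17 protein without part of the HMG box is known from testis, and it does not bind DNA. Sox17-202 and Sox17-201 encode the full protein of 419 codons. Sox17-208 starts at a codon whose first base is 4492591, in the last exon, and encodes 291 codons in the same frame, so its coding sequence lacks the printed stretch. Sox17-206 also lacks that exon and starts at another upstream codon, and the models Sox17-203, Sox17-204 and Sox17-207 stop short of a stop codon.

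**Figure D3:**
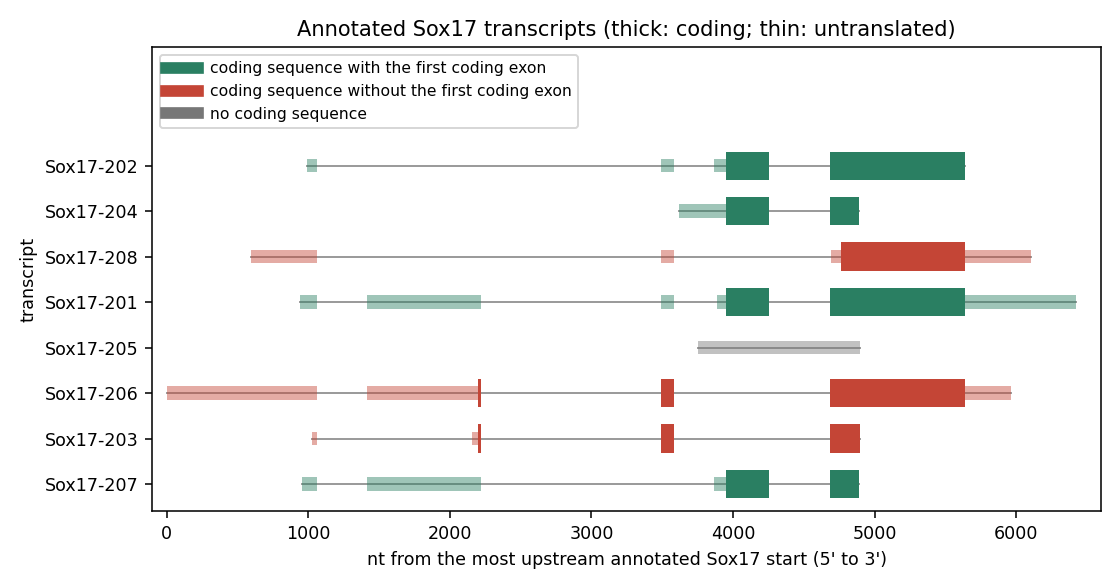
The 8 annotated Sox17 transcripts drawn 5′ to 3′ against nt from the most upstream start, in order of mean TPM; thick boxes are coding, thin boxes untranslated and lines introns. Green transcripts hold the usual first coding exon, red ones code without it and the grey one has no coding sequence.

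Of the 8 Sox17 transcripts, 6 were above 0 TPM in both libraries. Sox17-202 was the highest by mean, at 1.92 TPM in replicate 1, against 2.36 TPM in replicate 2, or 29.4% and 31.3% of the Sox17 TPM. Sox17-204 was at 1.37 and 2.32 TPM, 21.0% in replicate 1 and 30.8% in replicate 2, the widest spread of these transcripts. Sox17-208, the shortened form, was at 1.33 TPM in replicate 1, against 1.22 TPM in replicate 2, or 20.4% and 16.2%. Sox17-201 was at 1.14 and 1.29 TPM, or 17.5% and 17.1%. The retained intron Sox17-205 was at 0.580 and 0.300 TPM and Sox17-206 at 0.180 and 0.05 TPM, while Sox17-203 and Sox17-207 were listed at 0 in both libraries.

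The estimates of single Sox17 transcripts are wide. The deposited TPM bounds for Sox17-202, at a confidence level that no source used here states, were 0.790 to 2.74 in replicate 1 and 1.16 to 3.29 in replicate 2. Those for Sox17-208 were 0.634 to 2.06 in replicate 1 and 0.277 to 2.09 in replicate 2, so the intervals of these transcripts overlap in each library and their order is not resolved. The posterior SD of the Sox17-208 count was 13.98 counts in replicate 1 and 17.56 in replicate 2, on 57.47 and 49.21 expected counts. Summed, the transcripts coding with the usual first coding exon held 67.9% of the Sox17 TPM in replicate 1 and 79.2% in replicate 2. Those coding without it held 23.2% and 16.8%, and the transcript with no coding sequence 8.90% and 3.98%. In both libraries the transcripts with that exon held the larger share. No interval was computed for these sums. The sum with that exon includes Sox17-204, whose model lacks a stop codon, at 21.0% in replicate 1 and 30.8% in replicate 2. It is therefore not the share of the full protein, which Sox17-202 (29.4% and 31.3%) and Sox17-201 (17.5% and 17.1%) encode.

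**Figure D4:**
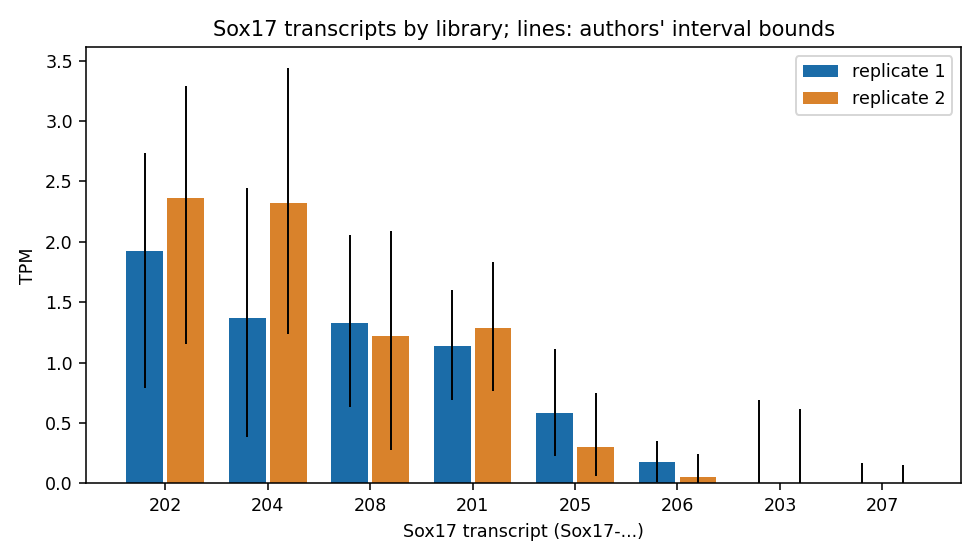
TPM of each Sox17 transcript in replicate 1 (blue) and replicate 2 (orange), in order of mean TPM; black lines run between the interval bounds deposited by the authors. The lines of Sox17-202, 204, 208 and 201 overlap in each library, and 203 and 207 have no bar because they are listed at 0.

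The neighbours of the members were read for overlap, since no source used here gives the strand of the libraries. Gm37587, a noncoding gene on the opposite strand, overlaps the upstream end of Sox17, and it was at 0.0700 TPM in replicate 1, against 0.120 TPM in replicate 2. No annotated gene overlaps Sox7 or Sox18. The nearest protein-coding genes on the 2 sides of Sox17 were Rp1 at 0.0150 ± 0.00707 TPM and, 275852 nt away, the mitochondrial ribosomal protein gene Mrpl15 at 114 ± 4.85 TPM. Those of Sox7 were Pinx1 at 15.7 ± 1.24 TPM and 4930578I06Rik, listed at 0, and Tcea2 beside Sox18 was at 23.0 ± 3.17 TPM.

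Between the libraries, none of the 3 SoxF genes was called. A two-sided exact binomial test on scaled counts with Benjamini-Hochberg adjustment compares these 2 libraries for counting error only, not conditions. It called 27.5% of 19153 genes tested, 14.8% higher in replicate 1 and 12.7% lower. The log2 ratio of replicate 1 over replicate 2 was 0.14 for Sox18 (adjusted p = 0.0917 by the exact binomial test), 0.16 for Sox7 (adjusted p = 0.181) and −0.03 for Sox17 (adjusted p = 0.915). Without adjustment Sox18 alone passed 0.05 (p = 0.0303 by the exact binomial test). edgeR's exact test with the spread of the typical gene called 0 of the 3, and 165 of the 19153 genes tested. That spread was estimated from the same 2 libraries as 1 group, so differences between them count as spread. Each ratio was within 1.5-fold, a bound that 14.9% of genes tested reached or passed. The median log2 ratio was 0.14 for the SoxF genes, 0.04 for the pan-endothelial list and under 0.01 in size for all genes tested.

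The other Sox genes and the lists gave calls in both directions. Over all genes tested, 14.8% were called higher in replicate 1 and 12.7% lower. The test calls smaller ratios where counts are higher. Sox6, at a log2 ratio of −0.15 on 1510 and 1654 counts, was called. Sox7, at 0.16 on 542 and 477 counts, was not. Numbers of calls therefore do not show whether SoxF genes were steadier than other Sox genes. Of 13 other Sox genes tested, 3 were called higher in replicate 1 (Sox8, Sox10 and Sox15) and 7 lower (Sox4, Sox5, Sox6, Sox9, Sox11, Sox12 and Sox13), while edgeR's exact test called 0. Of the pan-endothelial list 3 of 20 were higher in replicate 1, near the share over all genes, and 0 were lower, under that share. Those called higher, named here after their values were seen, were Flt1, Tie1 and Emcn. Of the lymphatic list 5 of 8 were higher and 0 lower, with a median log2 ratio of 0.26, and edgeR's exact test called 1, Lyve1. Of smooth muscle and pericyte genes 6 of 10 were higher and 1 lower, with a median of 0.27. The endothelial factors went 2 higher and 5 lower of 19 tested, the arterial list 3 and 1 of 15, the venous list 1 and 2 of 4 and the reported targets 2 and 2 of 12. Of the endoderm list 1 was higher and 1 lower of 5 tested, of blood progenitors 2 and 1 of 10, of megakaryocyte genes 1 and 1 of 5, of hair genes 1 and 1 of 9 and of beta-catenin partners 1 and 2 of 6. Whether SoxF and any of these lists differ in this respect was not tested.

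**Figure D5:**
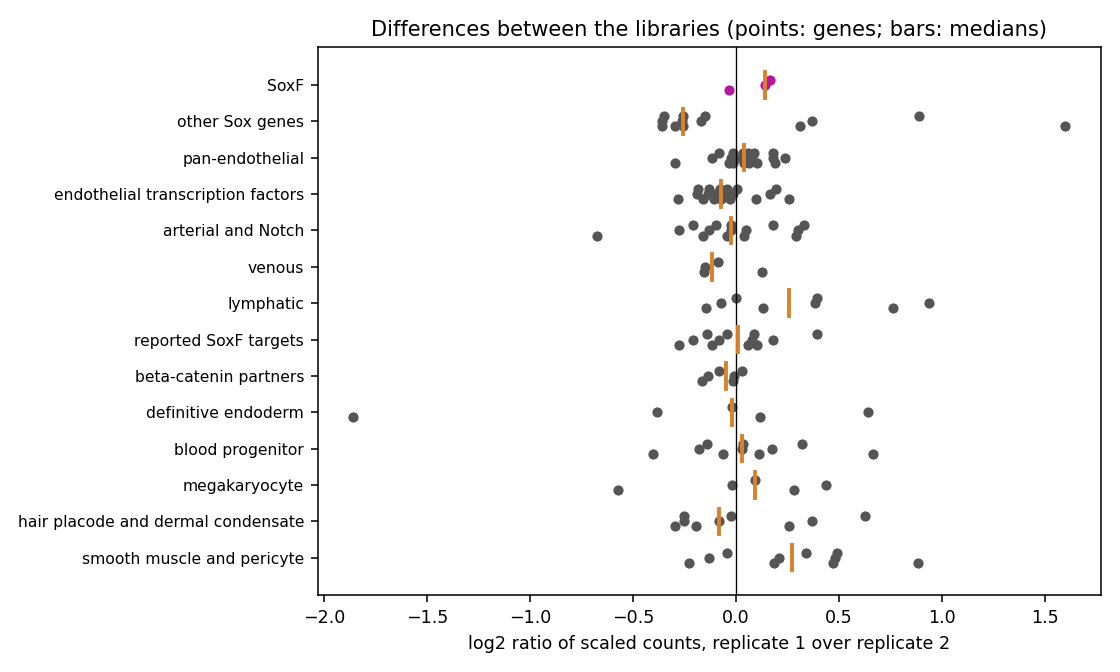
Log2 ratio of scaled counts, replicate 1 over replicate 2, for each tested gene of each list (points) with the list median (orange bar). The SoxF points lie between −0.03 and 0.16, and the lymphatic and smooth muscle medians lie at 0.26 and 0.27.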

How the data were processed

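Each library had a gene table and a transcript table on mm10 with the GENCODE M4 annotation, made from transcriptome alignments, per the file notes. No source used here names the aligner, the quantification program, versions or strand. Expected counts, as deposited by the authors, estimate the reads of a feature and are not normalized. The TPM values deposited by the authors have the same total in each library over all features, spike-ins included. For each transcript, its percent of the TPM of its gene was deposited by the authors, as were posterior means, SDs and interval bounds.

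Identifiers were matched to GENCODE M21 on GRCm38 (42462 of 43346 matched). The reference lengths of 9 of 10 member transcripts equal those in the tables. Counts were rounded and scaled by TMM (edgeR 4.0.16, R 4.3.3) with spike-ins left out. Genes with at least 10 summed counts were tested with an exact binomial test (Python 3.11.15, scipy 1.17.1), with Benjamini-Hochberg adjustment at 0.05. The test was checked on data simulated with counting error only, so the check does not cover wider spread between libraries. Ratios used log2(TPM + 0.1), which understates folds of low genes. Detection required 1 TPM in both libraries. The labels number the samples as biological replicates and give different collection days, but do not say that litters were separate, so SDs may be partly technical. Intervals cover counting error only.

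The members, the 14 lists, tests and named genes (members, Sox genes, Pecam1, Cdh5, neighbours, the 3 highest of each list and those under 1 TPM) were chosen with earlier results of these data known. Alternatives were posterior mean TPM, other scalings (DESeq2 1.42.0 size factors among them), pseudocounts, minimums and tests, and each library alone. A gene of the megakaryocyte list and a sequence are not reported here.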

Additional observations from a re-analysis of the deposited data

How the results depend on the processing

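Leaving out either library moves a mean of 2 by less than their SD by construction, so it can show a change of direction only. Under the other alternatives, 6 of 9 recomputed levels, 21 of 27 ratios and 2 of 4 transcript shares of the members stayed within the spread of the libraries. Of the values compared between the libraries 23 of 24, and of the numbers of detected genes 45 of 45, kept their direction and side of the threshold or, for counts of genes, lay within 1.5 times. The members' TPM changed by more than the spread of the libraries only when spike-ins and mitochondrial genes were left out of the total: Sox7 then stood at 8.38, Sox17 at 8.23 and Sox18 at 33.2 TPM. The log2 ratio of Sox18 over Sox7 was 1.85 with a pseudocount of 1 and 1.99 with 0.01. With a pseudocount of 1 the ratios of Sox7 and Sox17 over Pecam1 were −1.96 and −1.98, and that of Sox7 over Cdh5 was −1.74. The ratio of Sox17 over Sox7 turned to 0.0495 with posterior mean TPM and ran from −0.17 to 0.12 with each library alone, so this pair has no stable order. The share of Sox17-202 was 27.5% with posterior mean TPM and 26.7% of expected counts. By expected counts, which are not divided by length, Sox17-201 was higher, at 79.68 in replicate 1 and 83.78 in replicate 2. Sox17-202 had 62.44 and 71.64. The number of genes called between the libraries was 5274 by the exact binomial test and 165 by edgeR's exact test with the common dispersion of the same libraries. No paired analysis was possible because the samples form 1 group. The precision of the Sox17 transcripts is limited by about 250 counts per library and by the assignment of reads among them.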
